A study of Mus musculus with 10 samples.

Results

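The T and NK cell genes described here are a list of 39 transcripts known from T lymphocytes and natural killer (NK) cells, matched by gene symbol to a deposited table of 54532 genes, and all 39 were found in it. RNA was sequenced from primary peritoneal macrophages, the phagocytes washed from the mouse abdominal cavity, in 10 libraries. The labels describe libraries A, B, C and E as young and wild type, libraries 3, 4 and 6 as aged and wild type, and a further 3, numbered 1, 2 and 3, as aged with the genotype Trem1-/-, a loss of the myeloid activating receptor TREM1. The young group thus has 4 libraries and each aged group 3. The series title gives the question as what deleting this receptor does to macrophage transcripts as mice age. Strain, sex, age in months, allele design, pooling, batch and sorting are not stated in the labels, and a young Trem1-/- group was not analysed here. Nor is it stated that each library had its own mouse, so every p-value reflects only how much these samples vary, possibly for technical reasons. Reads counted per library ranged from 2663744 to 5603498.

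T cells carry an antigen receptor made of T cell receptor chains and CD3 signalling chains, and its engagement is passed on by the kinases Lck and Zap70 and the adaptor Lat. NK cells lack that receptor and rely on germline-encoded receptors such as NKp46 (Ncr1) and on granules of perforin and granzymes. Resting macrophages make neither receptor, and the mouse peritoneal cavity is known to hold lymphocytes, most of them B cells, beside its resident macrophages.

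Macrophage markers were abundant in every library and the members were rare. Adgre1, which encodes the macrophage surface protein F4/80, was read at 4008 to 4969 normalized counts in young wild type, 1847 to 2538 in aged wild type and 4227 to 4788 in labelled Trem1-/-. A normalized count is a read count divided by its library's size factor, and 3 reads, used here as the floor, are worth 1.85 to 3.84 of them. Trem1 itself was read in all 10 libraries, at 8.0 to 24.4 in young wild type, 15.3 to 64.0 in aged wild type and 23.5, 106 and 13.8 in libraries 1, 2 and 3 labelled Trem1-/-. That gene's level therefore does not separate the labelled genotypes, which are used as labelled.

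The 39 genes together took 0.00862% to 0.0168% of reads in young wild type, 0.0472% to 0.0759% in aged wild type and 0.0185% to 0.0235% in labelled Trem1-/-. All 3 groups stood apart on that sum. The genes Cd2, Ctla4 and Il2rb, held much of it. Without these 3, the share was 0.00537% to 0.00964% in young wild type, 0.0293% to 0.0449% in aged wild type and 0.00579%, 0.0116% and 0.00609% in labelled Trem1-/- libraries 1, 2 and 3. On that narrower sum, aged wild type stayed apart from both other groups, which overlapped each other.

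**Figure D1:**
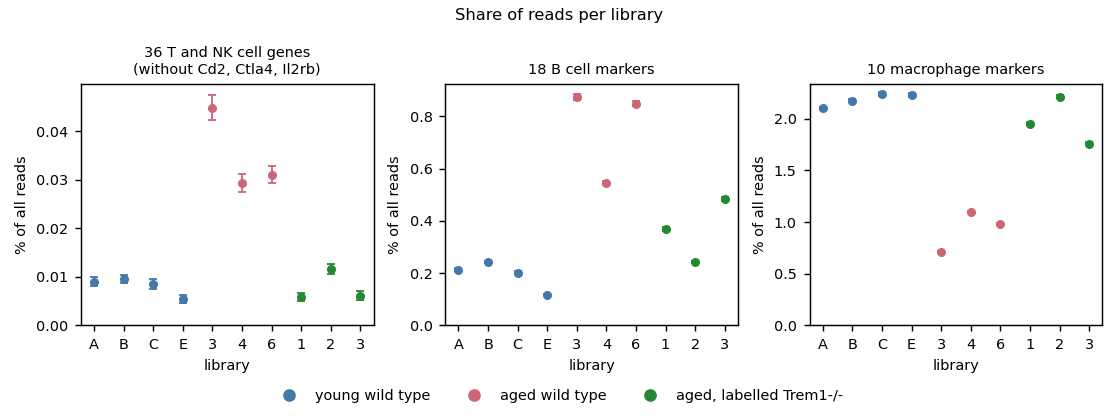
Share of all reads per library (percent, linear axes from 0) for 36 T and NK cell genes without Cd2, Ctla4 and Il2rb, for 18 B cell markers and for 10 macrophage markers. Points are libraries, bars are exact 95% binomial intervals that cover counting error only, and colours are the 3 groups. T and NK cell genes and B cell markers were highest in the 3 aged wild-type libraries, where macrophage markers were lowest.

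In aged wild type the lymphocyte identity of the list was borne out for T cells more than for NK cells. Rearranging T cell receptor variable segments, which are not members and which were summed over 176 rows of the table, gave 11, 13, 12 and 17 reads in young wild type, 34, 27 and 55 in aged wild type and 7, 16 and 5 in the labelled Trem1-/- libraries. At least 1 read fell on 57 of those rows in aged wild type, on 30 in young wild type and on 18 in the labelled Trem1-/- libraries. Of the 4 NK receptors, counted as single genes and not as a sum, 3 were close to the floor. In any library Ncr1 had 0 to 3 reads, Klrb1c 0 to 5 and Klrd1 1 to 7, while Klrk1, which T cells also carry, had 5 to 25. Outside aged wild type a single T cell gene could be as low. Trac, a T cell receptor chain, had 8, 4, 4 and 1 reads in young wild type and 4, 6 and 3 in labelled Trem1-/-. Klrd1 had 3, 7, 1 and 4, then 5, 6 and 4. Cd3g, a CD3 chain, had more, at 9, 21, 9 and 8, then 8, 13 and 12. In bulk RNA of this kind, fewer cells of a type and less RNA per cell cannot be told apart.

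Markers of other cell types differed between the libraries too. All 18 B cell markers were detected in every library, and they summed to 0.116% to 0.242% of reads in young wild type, 0.545% to 0.872% in aged wild type and 0.242% to 0.483% in labelled Trem1-/-. All 10 macrophage markers were detected too, at 2.10% to 2.24%, 0.711% to 1.10% and 1.76% to 2.21% of reads in the same order. Of 9 mast cell markers, 7 to 9 were detected, summing to 242 to 1393 normalized counts in young wild type, 949 to 2234 in aged wild type and 417 to 1973 in labelled Trem1-/-, with Ms4a2, Fcer1a or Mrgprb1 at 0 in 3 libraries. Of 11 mesothelial and fibroblast markers, 5 to 11 were detected, at 12.3 to 506, 649 to 701 and 14.3 to 504, and mesothelin (Msln) was at 0 in young A and B and labelled Trem1-/- 1. Red cell transcripts summed to 23701 in aged wild type 4 and to 9.30 to 751 elsewhere. Among 8 neutrophil markers 4 to 7 were detected, summing to 636 to 906 in young, 211 to 557 in aged wild type and 741 to 764 in labelled Trem1-/-, with Ly6g or Elane at 0 in each library. Among 8 dendritic cell markers 6 to 8 were detected, summing to 249 to 291, 123 to 166 and 190 to 351, and Xcr1 or Siglech was at 0 in 8 libraries. Among 5 eosinophil markers 2 to 4 were detected, summing to 46.5 to 72.7, 214 to 532 and 84.1 to 250.1, and Prg2 was at 0 in every library. The part these cell types have in the values below was not tested.

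Levels were compared with limma on log2(normalized count + 1), with all 10 libraries in 1 model. The test took in the 11506 genes whose normalized counts averaged 10 or more across libraries, and a gene was called at a Benjamini-Hochberg adjusted p under 0.05 over those genes. Of the members, 27 were tested. The other 12 (Trac, Icos, Gata3, Tbx21, Eomes, Ncr1, Klrb1c, Klrd1, Nkg7, Gzma, Gzmb and Prf1) had a lower mean and are given from the same fit without the filter, over 36939 genes. Of the 27, 15 also had a mean of at least 10 outside aged wild type, and 12 reached it only through aged wild type, where they are high. Those 12 (Cd3d, Cd3e, Cd247, Trbc1, Trbc2, Zap70, Lat, Skap1, Txk, Cd6, Cd8a and Cd8b1) had to differ, so the 2 sets are counted separately and no support is drawn from the 12.

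**Figure D2:**
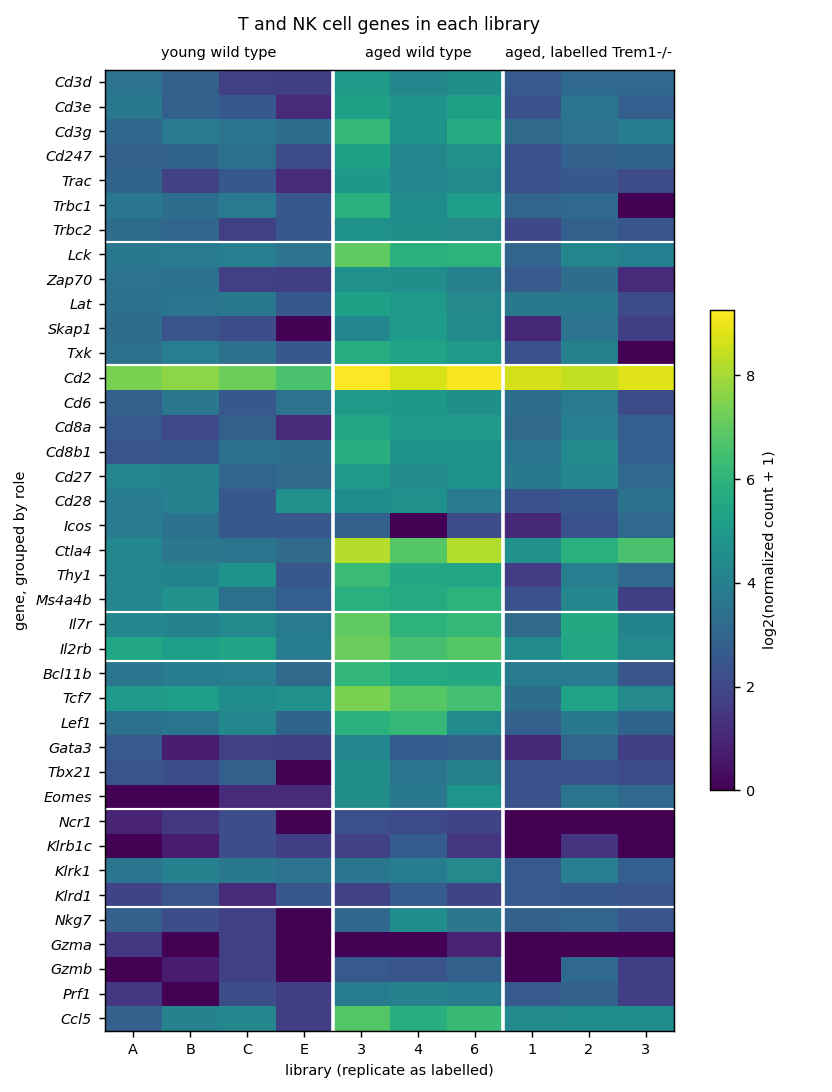
Level of each of the 39 T and NK cell genes in each library, as log2(normalized count + 1), with genes grouped by role (rows, white lines between groups) and libraries by group (columns). The 3 aged wild-type columns are the brightest for most T cell genes, the rows of Cd2 and Ctla4 stay bright in the labelled Trem1-/- columns, and the rows of Ncr1, Klrb1c, Klrd1 and the granzymes are the dark ones, unlike that of Klrk1.

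Between aged and young wild type, the T cell receptor genes, their kinases, coreceptors, cytokine receptors and transcription factors were higher with age in most cases. Of 27 members tested, 23 were called higher in aged wild type, where 14.3% of all genes tested were called higher and 19% lower. Of the 15 members that pass the filter without aged wild type, 13 were called higher, and of the other 12, 10 were. None of the 27 was called lower, as limma gave all 27 a positive difference with 0 lower at an unadjusted p under 0.05, and edgeR and DESeq2 also called 0 lower. In the fit without the filter 37 of 39 had a positive difference, the exceptions being Icos and Gzma, neither called. The median difference over the 15 was 2.07 on the log2 scale, against -0.02 over all genes tested. Over all 27 it was 2.04, but no support is drawn from the other 12 in this value or in the counts over 27. Without the filter 29 of 39 were called higher, where 5.25% of all genes were.

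In aged wild type the makeup of the reads differed as well. Mitochondrial transcripts took 3.17% to 5.26% of reads there against 1.19% to 2.39% in the other 7 libraries, and the single gene Gm26917 took 8.38% to 12.9% against at most 5.70%. These genes, immunoglobulins and globins were then left out of the library totals. In that setting 25 of the 27 members were called higher with age and 24 lower in labelled Trem1-/- than in aged wild type. It moved the median of all genes the same way, by 0.19 and -0.22, so these counts are not read as a stronger result. How many of all genes were called in that setting is not given here. Whether the mitochondrial and Gm26917 shares have another part in the members' values was not tested.

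The CD3 chains show the size of this difference. Cd3g, the CD3 gamma chain, was read at 7.84, 12.9, 10.8 and 9.30 normalized counts in young wild type A, B, C and E, at 70.4, 26.2 and 51.2 in aged wild type 3, 4 and 6, and at 8.17, 10.4 and 13.8 in labelled Trem1-/- 1, 2 and 3. Every aged wild-type library was above all others, and the other 2 groups overlapped. The difference between aged and young wild type was 2.08 ± 0.35 (SE) on the log2 scale, adjusted p = 0.00126 by limma. Cd3e, the epsilon chain, gave 12.2, 6.16, 4.80 and 1.16 in young, 38.4, 26.2 and 37.7 in aged wild type and 4.09, 11.2 and 5.74 in labelled Trem1-/-. Its age difference was 2.56 ± 0.56, adjusted p = 0.00499 with the filter, which it passes only through aged wild type, and 0.00107 without it. Cd3d, the delta chain, gave 10.5, 6.16, 2.40 and 2.32, then 32.0, 17.5 and 23.4, then 5.11, 8.01 and 8.03. For both genes aged wild type lay wholly above the rest, and for Cd3d the age difference was 2.15 ± 0.49 with an adjusted p of 0.0062, and 0.0026 without the filter, which it too passes only through aged wild type.

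These 3 genes lie together on mouse chromosome 9 in GRCm38, Cd3g at 44969572 to 44980431 on the minus strand, Cd3d at 44981786 to 44987339 on the plus strand and Cd3e at 44998740 to 45009627 on the minus strand. The starts of Cd3g and Cd3d are 1355 bases apart and face away from each other, and 11401 bases separate the 3′ ends of Cd3d and Cd3e. Their promoter windows are shown, with that of the kinase Lck from chromosome 4, because these 4 genes moved together over the 3 groups. Each window runs from 250 bases before a RefSeq start (GRCm38.p6) to 50 bases after it, is written 5′ to 3′ on the gene's own strand, and has in capitals every match on either strand to 5 short motifs. The letters TGTGGT were searched for RUNX factors, the letters CAGGAA for ETS factors and the letters CTTTGA for TCF and LEF factors. The letters AGGTGT stood for T-box factors and the letters AGATAA for GATA factors. The coordinates are chr9:44980382-44980681 (minus) for Cd3g, chr9:44981536-44981835 (plus) for Cd3d, chr9:45009562-45009861 (minus) for Cd3e and chr4:129573592-129573891 (minus) for the more upstream of the 2 windows listed for Lck.
Cd3g: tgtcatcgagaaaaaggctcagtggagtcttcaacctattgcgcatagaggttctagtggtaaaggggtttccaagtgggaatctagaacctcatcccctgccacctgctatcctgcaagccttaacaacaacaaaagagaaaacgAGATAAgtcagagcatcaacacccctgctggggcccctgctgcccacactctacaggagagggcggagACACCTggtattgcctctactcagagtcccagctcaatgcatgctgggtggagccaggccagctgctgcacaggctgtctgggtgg
Cd3d: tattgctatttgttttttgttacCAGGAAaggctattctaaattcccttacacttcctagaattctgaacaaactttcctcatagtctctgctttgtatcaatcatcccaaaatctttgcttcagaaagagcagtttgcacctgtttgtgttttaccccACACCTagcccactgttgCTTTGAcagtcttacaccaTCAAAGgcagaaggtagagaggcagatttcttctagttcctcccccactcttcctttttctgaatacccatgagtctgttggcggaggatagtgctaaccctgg
Cd3e: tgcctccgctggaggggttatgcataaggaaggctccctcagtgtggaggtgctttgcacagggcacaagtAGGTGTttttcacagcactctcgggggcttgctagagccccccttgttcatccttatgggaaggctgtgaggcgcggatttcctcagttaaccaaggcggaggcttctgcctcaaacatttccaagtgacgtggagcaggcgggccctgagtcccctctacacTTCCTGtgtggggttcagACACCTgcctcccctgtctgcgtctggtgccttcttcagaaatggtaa
Lck: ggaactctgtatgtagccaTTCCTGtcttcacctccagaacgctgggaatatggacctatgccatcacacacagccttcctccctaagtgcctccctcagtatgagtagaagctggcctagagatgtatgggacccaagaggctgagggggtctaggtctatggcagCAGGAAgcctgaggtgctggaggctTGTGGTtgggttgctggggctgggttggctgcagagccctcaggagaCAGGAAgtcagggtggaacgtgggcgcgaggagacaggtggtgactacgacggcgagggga
Cd3g held 1 GATA and 1 T-box match, Cd3d 2 TCF/LEF, 1 ETS and 1 T-box, Cd3e 1 ETS and 2 T-box, and Lck 1 RUNX and 3 ETS, with no match overlapping another. No single motif was in all 4 windows. RefSeq windows were matched for 26 members, 35 windows in all. Among those 35 the RUNX letters were in 37.1%, against 16.8% of all 32851 mouse windows, and the ETS letters in 48.6% against 30.6%. The TCF/LEF letters were in 25.7% against 16.0%, the T-box letters in 25.7% against 13.7% and the GATA letters in 8.57% against 11.2%. A match is a run of letters and not a measured binding site.

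The remaining receptor chains followed the CD3 genes. Cd247, the zeta chain, averaged 6.49 ± 2.51 (SD, n = 4) normalized counts in young wild type, 26.3 ± 9.98 (SD, n = 3) in aged wild type and 5.79 ± 1.5 (SD, n = 3) in labelled Trem1-/-, an age difference of 1.87 ± 0.41 (SE). Of the 31-base words of Cd247 exons, 57.7% also lie in Pou2f1, which overlaps it on the opposite strand, and whether the authors' counting used strand is not given in the sources used here. Trbc2, a T cell receptor beta constant region, was 1.91 ± 0.45 higher in aged wild type. Trbc1, its near copy, read 11.3, 9.24, 13.2 and 4.65 in young, 60.2, 21.8 and 35.0 in aged wild type and 7.15, 8.01 and 0 in labelled Trem1-/-, and its difference of 1.88 ± 0.71 had an adjusted p of 0.0618, and 0.0427 without the filter. The 2 constant regions share 44.8% of Trbc1's and 48.5% of Trbc2's 31-base words, so their split is uncertain. Trac, the alpha constant region, gave 8, 4, 4 and 1 reads in young, 23, 17 and 23 in aged wild type and 4, 6 and 3 in labelled Trem1-/-, and was called higher with age in the fit without the filter (2.44 ± 0.48, adjusted p = 0.00141).

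Kinases and adaptors below the receptor were called higher with age in 4 of 5 cases, where 14.3% of all genes tested were. All but Lck pass the filter only through aged wild type, so no support is drawn from that count. Lck, the kinase that phosphorylates the CD3 chains, read 12.2, 13.5, 14.4 and 10.5 in young, 127, 57.8 and 62.9 in aged wild type and 7.15, 17.6 and 14.9 in labelled Trem1-/-. No aged wild-type value came near the others, and the age difference was 2.53 ± 0.35 with an adjusted p of 0.000457. Zap70, the kinase recruited to the phosphorylated receptor, was 1.81 ± 0.64 higher (adjusted p = 0.0477), Lat, the adaptor it phosphorylates, 1.60 ± 0.47 higher and the adaptor Skap1 2.66 ± 0.79 higher. Txk, a Tec family kinase, had a difference of 2.04 ± 0.76 and an adjusted p of 0.0574 (0.035 without the filter), although every aged wild-type library (53.8, 39.3 and 30.5) was above every young one (4.65 to 14.8).

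**Figure D3:**
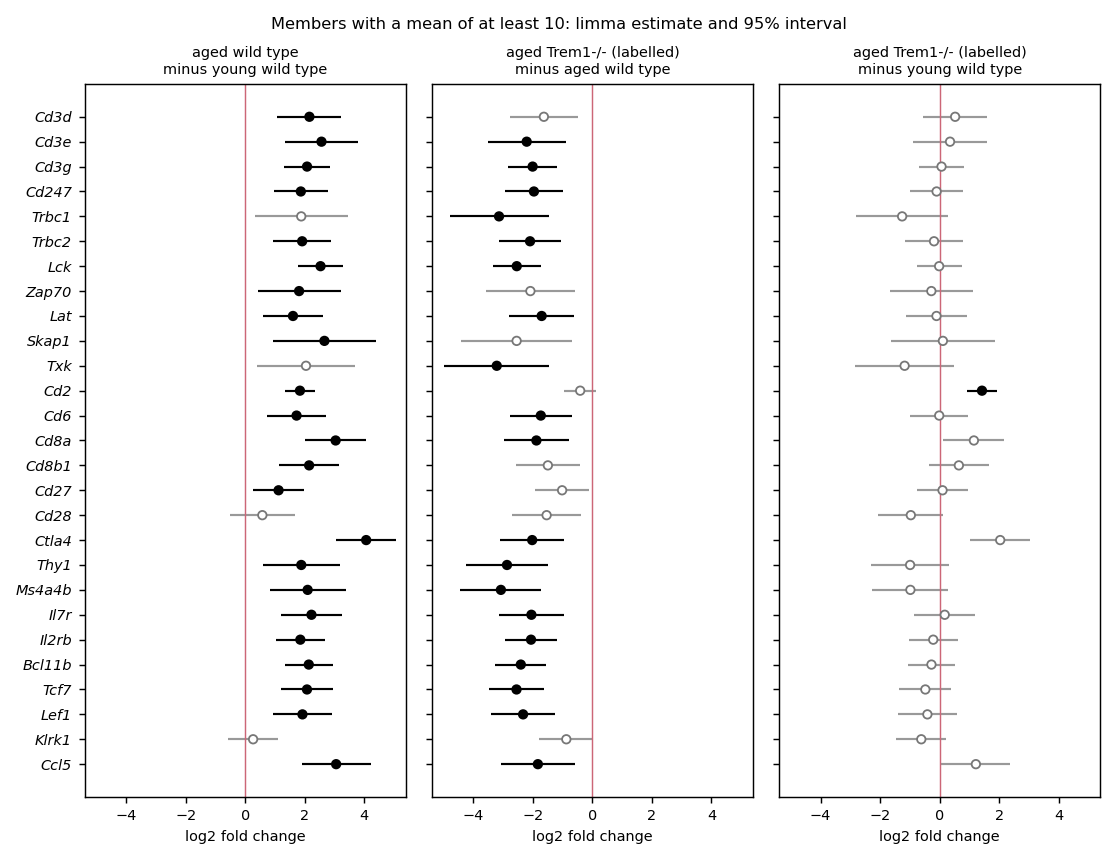
Difference in log2(normalized count + 1) for the 27 members tested, with 95% intervals from limma, in the 3 comparisons. Filled black points were called at an adjusted p under 0.05 and open grey points were not, and the vertical line marks 0. Points sit right of 0 in the age comparison, left of 0 in the comparison of labelled Trem1-/- with aged wild type, and spread around 0 in the comparison of labelled Trem1-/- with young wild type except Cd2 and Ctla4.

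Of 9 coreceptors and surface molecules tested, 8 were called higher with age, where 14.3% of all genes tested were. Cd6, Cd8a and Cd8b1 pass the filter only through aged wild type, and no support is drawn from them. Ctla4, an inhibitory receptor that competes with Cd28 for its ligands, read 19.2, 11.7, 10.8 and 8.14 in young, 301, 111 and 294 in aged wild type and 24.5, 58.5 and 96.4 in labelled Trem1-/-. The 3 groups did not overlap, and the age difference of 4.06 ± 0.46 (adjusted p = 0.00022) was the largest of the 27. Cd8a and Cd8b1, the chains of the coreceptor of cytotoxic T cells, rose by 3.04 ± 0.47 and 2.15 ± 0.47. Cd2, an adhesion receptor of T and NK cells that mouse B cells also carry, read 170, 202, 143 and 96.5 in young and 614, 416 and 580 in aged wild type, a difference of 1.84 ± 0.23 (adjusted p = 0.000302). Cd6, a receptor tuning activation, Thy1, a surface glycoprotein of mouse T cells, and Ms4a4b, a T cell tetraspanning protein, rose by 1.72 ± 0.45, 1.88 ± 0.60 and 2.09 ± 0.58, and the costimulatory receptor Cd27 by 1.12 ± 0.39.

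Both other receptors of the Cd28 family did not follow. Cd28, which delivers the main costimulatory signal, read 13.1, 15.4, 4.80 and 24.4 in young and 21.8, 24.0 and 13.5 in aged wild type, overlapping groups with a difference of 0.57 (95% interval -0.52 to 1.66). Icos, a relative of Cd28 that is induced on activated T cells, gave 15, 16, 4 and 4 reads in young, 5, 0 and 4 in aged wild type and 1, 5 and 7 in labelled Trem1-/-. Its difference in the fit without the filter was -1.38 (-2.81 to 0.06), and it was not called. Whether these differences differ from that of Ctla4 was not tested.

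Cytokine receptors and lineage transcription factors were higher with age. Il7r, the interleukin 7 receptor of naive and memory T cells, rose by 2.22 ± 0.47 and Il2rb, the beta chain that T and NK cells share for interleukins 2 and 15, by 1.85 ± 0.38. Bcl11b, a factor that commits progenitors to the T lineage, read 11.3, 14.2, 14.4 and 8.14 in young, 69.1, 50.2 and 47.6 in aged wild type and 13.3, 13.6 and 4.59 in labelled Trem1-/-. Aged wild type was apart from both other groups, by 2.13 ± 0.37 from young. Tcf7 and Lef1, which encode the partner factors TCF1 and LEF1 of naive and memory T cells, rose by 2.07 ± 0.40 and 1.92 ± 0.46. For Lef1, 14.7% of 31-base words are shared with the opposite-strand gene Gm43352.

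Factors of effector cells had few reads. Eomes, a T-box factor of NK and memory CD8 T cells, gave 0, 0, 1 and 1 reads in young, 18, 11 and 30 in aged wild type and 4, 14 and 7 in labelled Trem1-/-. In normalized counts aged wild type was at 12.0 to 27.0 and labelled Trem1-/- at 4.09 to 11.2, so the 3 groups did not overlap on that scale, although the read counts of the 2 aged groups did. Its age difference without the filter was 3.80 ± 0.56 (adjusted p = 7.2e-05). Tbx21, the T-box factor T-bet, was called as well (2.20 ± 0.59, adjusted p = 0.0181) from 0 to 6 reads in young and 10 to 18 in aged wild type. Gata3, a factor of helper T cells and innate lymphoid cells, had 1 to 6 and 5 to 15 reads and a difference of 1.59 ± 0.66 that was not called (adjusted p = 0.143).

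NK receptors did not pass the test with age and cytotoxic genes did in part. Klrk1, which encodes NKG2D and is also carried by CD8 T cells, was the only one of 4 NK receptors tested with the filter, with 11.3, 15.4, 12.0 and 10.5 in young and 11.5, 14.2 and 19.8 in aged wild type. Those groups overlapped, with a difference of 0.26 (-0.58 to 1.11). Ncr1, Klrb1c (NK1.1) and Klrd1 (CD94) had differences of 0.93 (-0.36 to 2.23), 0.85 (-0.59 to 2.28) and 0.16 (-1.03 to 1.36) without the filter, on 0 to 7 reads a library. Ccl5, a chemokine stored by memory CD8 T cells and NK cells, rose by 3.05 ± 0.53 (adjusted p = 0.00142), with 6.10, 16.6, 19.2 and 2.32 in young and 110, 56.7 and 77.3 in aged wild type. Prf1, the pore-forming perforin, and Nkg7, a granule membrane protein, were called without the filter at 2.64 ± 0.58 and 2.06 ± 0.60. Gzmb gave 0, 1, 2 and 0 reads in young and 4, 4 and 7 in aged wild type and was not called (2.02 ± 0.75, adjusted p = 0.0999), and Gzma gave 0 to 2 reads in any library.

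Over the 38 members with a mean of at least 1 normalized count, 32 had every aged wild-type library above every young one, where 16.9% of all genes at that mean did. The 6 that overlapped were Cd28, Icos, Ncr1, Klrb1c, Klrk1 and Klrd1. Tests on the recovered reads called 25 of the 27 members higher, where edgeR called 15.8% of genes and DESeq2 15.8%. The 27 include the 12 that pass the filter only through aged wild type, from which no support is drawn. In the authors' deposited table of aged against young wild type, 28 of 38 members with an adjusted p were higher and 0 lower, where 10.6% of genes were higher and 11.2% lower. When each library was left out in turn, 17 of the 23 calls held in every fit and the count of calls was lowest, at 18, without aged wild type 3 or 6. Cd27, Lat, Ms4a4b, Skap1, Thy1 and Zap70 lost theirs in at least 1 fit, with adjusted p up to 0.144, 0.0858, 0.0586, 0.0641, 0.116 and 0.135. The libraries whose removal ended a call were young C and E and aged wild type 3, 4 and 6. The share of all genes called in these fits is not given here, so the losses are not read as particular to the members.

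Aged libraries labelled Trem1-/- had less of the same T cell transcripts than aged wild type. Of the 27 members tested, 19 were called lower, where 6.82% of all genes tested were called lower and 11.5% higher. Among the 15 that pass the filter without aged wild type, 11 were called lower, and among the other 12, 8 were. None of the 27 was called higher: limma gave all 27 a negative difference with 0 higher at an unadjusted p under 0.05, and edgeR and DESeq2 called 0 higher. In the fit without the filter Icos and Klrd1 were the 2 of 39 with a positive difference, neither called. The median difference was -2.05 on the log2 scale over the 15 and also over all 27, against 0.02 over all genes tested. No support is drawn from the other 12 in the counts over 27. Without the filter 22 of 39 were called lower, where 2.15% of all genes were. This comparison and the age comparison share the 3 aged wild-type libraries, so they are not independent of each other.

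Receptor and signalling genes were called lower in 8 of the 11 tested, where 6.82% of all genes tested were. All but Cd3g and Lck pass the filter only through aged wild type, so no support is drawn from that count. Cd3g dropped by 2.01 ± 0.38 (SE, adjusted p = 0.00567), Cd3e by 2.21 ± 0.60, Cd247 by 1.97 ± 0.44, Trbc2 by 2.10 ± 0.48 and Lck by 2.54 ± 0.37 (adjusted p = 0.00212). Trbc1 fell by 3.14 ± 0.76, Txk fell by 3.22 ± 0.81 and Lat fell by 1.71 ± 0.50. Labelled Trem1-/- 3 had 0 reads of both Trbc1 and Txk, against 7 and 4 reads in library 1 and 10 and 20 in library 2. Cd3d, Zap70 and Skap1 had differences of -1.63 (-2.78 to -0.48), -2.09 (-3.58 to -0.59) and -2.55 (-4.40 to -0.69) that were not called, with adjusted p of 0.0512, 0.0541 and 0.0572. Without the filter, Zap70 and Skap1 were called (0.043 and 0.0389) and Cd3d was not (0.0557). Those 3 were lower in every labelled Trem1-/- library than in any aged wild-type one.

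Among the 9 surface molecules tested, 5 were called lower, where 6.82% of all genes tested were. Cd6, Cd8a and Cd8b1 pass the filter only through aged wild type, and no support is drawn from them. Ms4a4b, the T cell tetraspanning protein, read 57.6, 51.3 and 62.9 in aged wild type and 4.09, 18.4 and 2.29 in labelled Trem1-/-, and fell by 3.08 ± 0.62 (adjusted p = 0.00807). Thy1 read 79.4, 46.9 and 42.2 in aged wild type and 2.04, 14.4 and 8.03 in labelled Trem1-/-, and fell by 2.87 ± 0.64. Neither pair of groups overlapped, and in each gene library 2 was the highest of the labelled Trem1-/- libraries. Ctla4, Cd8a and Cd6 fell by 2.03 ± 0.50, 1.88 ± 0.50 and 1.74 ± 0.48. Cd8b1, Cd28 and Cd27 had differences of -1.5 (-2.59 to -0.41), -1.54 (-2.71 to -0.37) and -1.02 (-1.92 to -0.12) that were not called.

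The most abundant member, Cd2, was not among those called. It read 406, 340 and 454 in labelled Trem1-/- against 614, 416 and 580 in aged wild type, so the groups overlapped. Its difference was -0.41 ± 0.24 (95% interval -0.94 to 0.12, adjusted p = 0.252), the smallest of the 27 in size. Klrk1 also overlapped, at -0.88 (-1.78 to 0.03).

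Transcription factors and cytokine receptors fell by amounts close to those of the receptor chains. Tcf7 read 169, 111 and 89.8 in aged wild type and 9.20, 40.1 and 19.5 in labelled Trem1-/-, groups that did not overlap, and fell by 2.55 ± 0.43 (adjusted p = 0.00353). Bcl11b, Lef1, Il2rb and Il7r fell by 2.41 ± 0.39, 2.33 ± 0.49, 2.06 ± 0.41 and 2.05 ± 0.50. Ccl5 fell by 1.83 ± 0.57 (adjusted p = 0.0442), to 20.4, 21.6 and 21.8. Of the members under the filter, Trac was called lower (-2.21 ± 0.52, adjusted p = 0.0127), while Eomes (-1.32, -2.57 to -0.07), Tbx21 (-1.79, -3.11 to -0.47), Prf1 (-1.59, -2.87 to -0.30) and Nkg7 (-0.98, -2.31 to 0.35) were not. Ncr1 had 3 reads in each aged wild-type library and 0 in each labelled Trem1-/- library, where 0 allows up to 2.40 to 3.44 normalized counts, and no fold is given.

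**Figure D4:**
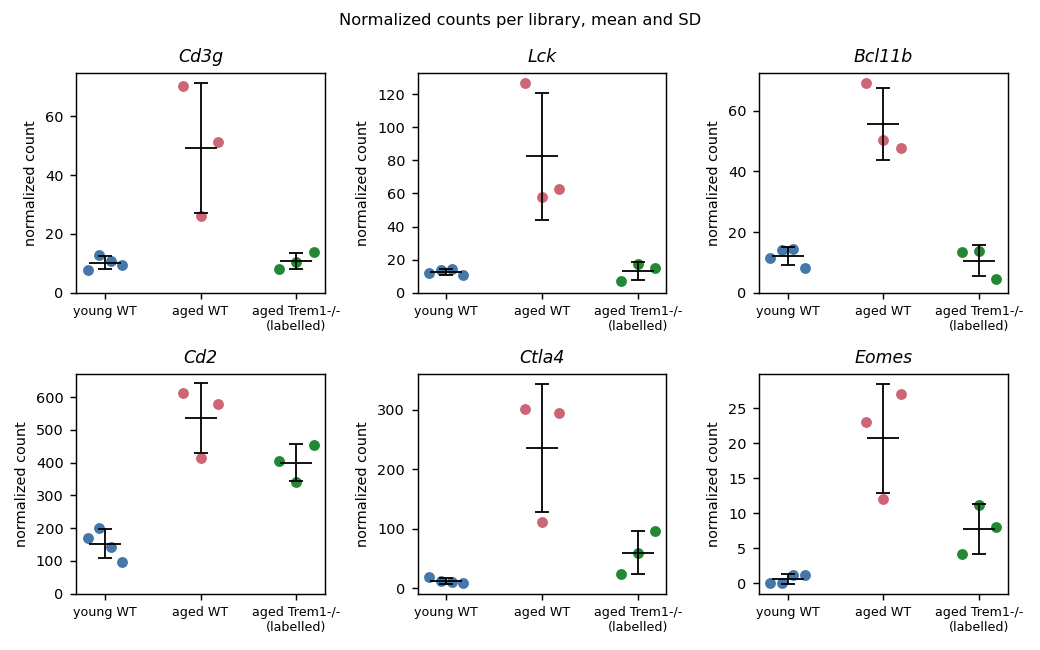
Normalized counts of Cd3g, Lck, Bcl11b, Cd2, Ctla4 and Eomes, with 1 point per library, a horizontal line at the group mean and bars of 1 SD (n = 4, 3 and 3). Axes are linear and begin near 0. The ranges of Cd3g, Lck and Bcl11b in labelled Trem1-/- overlap those of young wild type, while Cd2, Ctla4 and Eomes lie above every young value.

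Over the 38 members with a mean of at least 1, 32 had every labelled Trem1-/- library below every aged wild-type one, where 16.4% of genes did. The overlapping ones were Cd2, Icos, Gata3, Klrk1, Klrd1 and Gzmb. On recovered reads, edgeR called 22 of the 27 lower, where it called 8.26% of genes, and DESeq2 called 24, where it called 8.94%. The 27 again include the 12 that pass the filter only through aged wild type. Leaving out each library in turn gave 8 to 20 calls. Without aged wild type 3 the count of calls went from 19 to 8. The share of all genes called in these fits is not given here, so the drop is not read as particular to the members. Bcl11b, Cd3g, Il2rb, Lck, Lef1, Ms4a4b, Tcf7 and Thy1 were the 8 that stayed called in every such fit. The other 11 all lost their call without aged wild type 3, and over all such fits their highest adjusted p ran from 0.0509 for Trbc2 to 0.142 for Ccl5. Some of the 11 also lost it without aged wild type 4 (Lat), aged wild type 6 or labelled Trem1-/- 1 or 3, and Ccl5 without labelled Trem1-/- 2.

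Against young wild type, most members in the aged libraries labelled Trem1-/- were at levels that overlapped. Of the 27 tested, 1 was called higher, Cd2, where 0.591% of all genes tested were called higher and 0.33% lower. No member was called lower by limma, with 0 lower at an unadjusted p under 0.05 and 0 by edgeR or DESeq2. The median difference over the 27 was -0.10 on the log2 scale, against 0.01 over all genes tested. This comparison shares its libraries with the other 2. Few genes of any kind were called here, and a p that misses the threshold does not show equal levels. The 95% intervals give what the data allow: -0.71 to 0.83 for Cd3g, -0.77 to 0.74 for Lck, -1.08 to 0.53 for Bcl11b and -1.35 to 0.39 for Tcf7. They were wider for Skap1 (-1.63 to 1.85) and Trbc1 (-2.82 to 0.30).

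Cd2 was 1.42 ± 0.23 higher than in young wild type (adjusted p = 0.021), with all 3 labelled Trem1-/- libraries (340 to 454) above all 4 young ones (96.5 to 202). Leaving out young C, or labelled Trem1-/- 1 or 3, ended that call, with adjusted p up to 0.108. Ctla4 was 2.04 ± 0.46 higher with an adjusted p of 0.0622, again with no overlap. Eomes was 2.48 ± 0.56 higher in the fit without the filter (adjusted p = 0.0372), where Cd2, Ctla4 and Eomes were the 3 of 39 called and 0.436% of all genes were. Ccl5 did not overlap either, at 1.22 (0.06 to 2.38). These 4 were the members, of 38, with every labelled Trem1-/- library above every young one, where 5.94% of genes at that mean were. Tests on recovered reads called 1 member (edgeR, Cd2, 0.452% of genes) and 2 members (DESeq2, Cd2 and Ctla4, 2.2% of genes) higher. Cd8a had a difference of 1.15 (0.13 to 2.18, adjusted p = 0.282).

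Setting the members against the B cell markers of the same library separates some libraries labelled Trem1-/- from the rest. The members without Cd2, Ctla4 and Il2rb gave 4.24, 3.99, 4.19 and 4.63 reads per 100 B cell marker reads in young wild type A, B, C and E, 5.15, 5.38 and 3.66 in aged wild type 3, 4 and 6, and 1.57, 4.79 and 1.26 in labelled Trem1-/- 1, 2 and 3. Young and aged wild type overlapped on that ratio, and labelled Trem1-/- 2 lay among them while 1 and 3 lay below. Cd2 reads per 100 B cell marker reads were 2.26, 2.42, 2.01 and 2.29 in young, 2.07, 2.21 and 2.11 in aged wild type and 3.11, 3.80 and 2.61 in labelled Trem1-/-. For Ctla4 that ratio was 0.255, 0.140, 0.152 and 0.193, then 1.01, 0.590 and 1.07, then 0.188, 0.652 and 0.555. No test was made on these ratios, and the part of B cells in the levels of Cd2 and Ctla4 was not tested.

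The B cell markers were themselves called higher with age in 17 of 18 cases, where 14.3% of all genes tested were. In labelled Trem1-/- against aged wild type 9 of 18 were called lower, where 6.82% of all genes tested were. All 18 were lower in that comparison at an unadjusted p under 0.05. There edgeR called 10 (8.26% of all genes), DESeq2 15 (8.94%) and limma without the filter 16 (2.15%). Against young wild type, 3 of 18 (Pou2af1, Blk and Ighd, named by their calls) were higher in labelled Trem1-/-, with 2 by edgeR, 7 by DESeq2, 7 without the filter and 12 at an unadjusted p under 0.05. The shares of all genes called higher there were 0.591% by limma, 0.452% by edgeR, 2.2% by DESeq2 and 0.436% without the filter. Cd79a, which encodes a signalling chain of the B cell receptor, rose by 2.33 ± 0.34 with age. Its difference between labelled Trem1-/- and aged wild type was -1.05 ± 0.36 and was not called. Macrophage markers ran the other way, with 9 of 10 called lower with age, where 19% of all genes tested were. In labelled Trem1-/- against aged wild type 8 of 10 were called higher, where 11.5% of all genes tested were. Adgre1 dropped by 1.16 ± 0.13 with age and was 1.12 ± 0.14 higher in labelled Trem1-/- than in aged wild type.

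Libraries of 1 group did not share a single T cell level. Young E was the lowest of its group for 20 of the 27 members tested, where it was the lowest for 29.7% of all genes tested. Aged wild type 3 was the highest for 22 of 27, against 34.6% of genes, and aged wild type 4 the lowest for 15, against 35.5%. Labelled Trem1-/- 2 was the highest for 19 of 27, against 36% of genes. That library also had the largest macrophage, dendritic cell, mast cell, mesothelial and red cell sums of its group. Its B cell and eosinophil sums were the smallest, and its neutrophil sum lay between those of the others. Coreceptor ratios varied as well. Reads of Cd8a and Cd8b1 over reads of Cd3d, Cd3e and Cd3g were 0.314, 0.317, 0.867 and 0.818 in young, 0.700, 0.797 and 0.528 in aged wild type and 1.12, 1.16 and 0.417 in labelled Trem1-/-, on 9 to 77 Cd8 reads. Those ranges overlapped.

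Per kilobase of exon, Cd2 was the most abundant member in aged wild type at 308 normalized counts per kb, followed by Ctla4 at 101, Ccl5 at 84.8, Trbc1 at 52.1 and Tcf7 at 47.0. In young wild type Cd2 stood at 87.8 per kb and Ctla4 at 5.35, and in labelled Trem1-/- at 230 and 25.7. Ctla4 had thus moved from below Tcf7 (10.7 per kb) in young wild type to above it (8.73 per kb) in labelled Trem1-/-.

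Other genes of T cell receptor signalling, from a list of 20 that are no members, gave 14 called higher and 1 lower of 17 tested with age. Of all genes tested, 14.3% were called higher and 19% lower. In labelled Trem1-/- against aged wild type 10 were called lower and 1 higher, where 6.82% and 11.5% of all genes tested were. The exception in both comparisons was Lcp2, which encodes the adaptor SLP-76 and is named by its calls. Against young wild type 0 were called by limma or edgeR, with 4 higher and 0 lower at an unadjusted p under 0.05. There DESeq2 called 1 higher, where it called 2.2% of all genes. Ptpn22, a phosphatase that restrains Lck, and Nfatc1, an activation factor, had the lowest p with age at 1.91 ± 0.26 and 1.79 ± 0.26, and each is also used in B cells. Grap2, an adaptor, and Nfatc2, a relative of Nfatc1, were called lower in labelled Trem1-/- than in aged wild type, where they fell by 1.99 ± 0.35 and 1.03 ± 0.19. The helper T cell coreceptor Cd4 read 10.5, 7.39, 7.21 and 5.81 in young, 26.9, 21.8 and 25.2 in aged wild type and 3.07, 11.2 and 1.15 in labelled Trem1-/-. Cd4 was called higher with age (1.58 ± 0.52) and lower in labelled Trem1-/- than in aged wild type (-2.43 ± 0.56, adjusted p = 0.014). Its age call held in 1 of 7 fits that each left out a library, that without young A, with adjusted p up to 0.106, and the other call held in all 6. Cd5, a receptor of T cells and of B-1 cells, was called higher with age (1.81 ± 0.44) and was at -1.16 ± 0.48 in labelled Trem1-/- against aged wild type, not called.

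Lists for narrower lymphocyte classes had few genes above the filter. Of all genes tested, 14.3% were called higher and 19% lower with age. In labelled Trem1-/- against aged wild type these shares were 11.5% and 6.82%. Of 9 gamma-delta and innate-like T cell genes 2 were tested, and Zbtb16, a factor of innate-like T cells, was called lower with age (-1.89 ± 0.43) and higher in labelled Trem1-/- than in aged wild type (2.37 ± 0.46). Trdc, the delta constant region, read 5.23, 0, 12.0 and 1.16 in young, 8.96, 1.09 and 8.09 in aged wild type and 0, 0.801 and 1.15 in labelled Trem1-/-. Of 21 other NK and cytotoxic genes 3 were tested, and the adhesion receptor Cd226 was called lower with age (-1.22 ± 0.37) and higher in labelled Trem1-/- than in aged wild type (1.25 ± 0.40). Zbtb16 and Cd226, like Lcp2 above and Rora below, ran in the direction of most macrophage markers. Which cells these reads came from was not tested. Without the filter 2 of 20 were called higher with age, Klrc1 and Gzmk, named by their calls, where 5.25% of all genes were. Cd226 was the 1 called lower, and 15 of the 20 had a positive difference. The age call of Cd226 held in 3 of 7 such fits, failing without young A or C or aged wild type 3 or 6, and the other call in 2 of 6, failing without aged wild type 3 or 6 or labelled Trem1-/- 1 or 2 (adjusted p up to 0.111 and 0.163). In the 10 settings other than leaving out a library, the age call of Cd226 held in 10. The other Cd226 call held in 7 of those 10 (adjusted p up to 0.122). Klrg1, a receptor of mature NK and effector T cells, had reads in 1 of 10 libraries, aged wild type 4, at 1.09. Gzmk, a granzyme named here after its values were seen, had 0 reads in all 4 young libraries, 5, 3 and 14 in aged wild type and 0, 6 and 3 in labelled Trem1-/-.

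Trafficking and memory genes gave 5 called higher of 8 tested with age, where 14.3% of all genes tested were. Among them were S1pr1 (0.84 ± 0.16) and Ccr7 (1.67 ± 0.34), receptors for leaving and entering lymph nodes, and the chromatin organizer Satb1 (2.24 ± 0.47). Ccr9, a gut homing receptor, was called too. Against aged wild type, labelled Trem1-/- had 2 called lower, among them S1pr1 (-0.67 ± 0.17), and 2 higher, Cd44 (0.69 ± 0.17) and Klf2. Of all genes tested, 6.82% were called lower and 11.5% higher there. Both edgeR and DESeq2 called 1 higher, Cd44, and not Klf2. The call of S1pr1 was lost without aged wild type 3 or labelled Trem1-/- 2 (adjusted p up to 0.0754), and that of Cd44 without aged wild type 6 or labelled Trem1-/- 1 or 2 (up to 0.0647). Of 11 regulatory and checkpoint genes, 3 were tested and Tnfrsf18 was called higher with age (1.38 ± 0.43), while in labelled Trem1-/- against aged wild type 0 of 3 were called by limma, edgeR or DESeq2 and 0 at an unadjusted p under 0.05. The age call of Tnfrsf18 held in 2 of 7 fits, those without young B or aged wild type 4 (adjusted p up to 0.105). Foxp3, the factor of regulatory T cells, read 3.49 to 8.62 in young, 3.84 to 9.88 in aged wild type and 4.59 to 9.20 in labelled Trem1-/-. These ranges overlapped, and the values are low beside a floor of 1.85 to 3.84. Foxp3 exons are also overlapped by Ccdc22, Gm36995 and Ppp1r3f on the opposite strand and by Flicr. Whether Foxp3 differs from Ctla4, which regulatory T cells also carry, was not tested. Of 9 genes of type 2 innate lymphoid cells 4 were tested. Il17rb rose with age by 1.77 ± 0.36 and fell by 1.67 ± 0.39 in labelled Trem1-/- against aged wild type, and Rora went the other way (-0.73 ± 0.22, then 0.82 ± 0.24). Both calls of Il17rb held in every fit that left out a library. Those of Rora were lost without young A or C or aged wild type 6 with age, and without aged wild type 3 or 6 or labelled Trem1-/- 1 or 2 in the other comparison (adjusted p up to 0.115 and 0.13).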

How the data were processed

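RNA of 10 mouse peritoneal macrophage libraries was sequenced. Per the labels, RNA was taken with a Qiagen column kit, made into cDNA with a stranded Takara kit and built into libraries with a NEBNext kit, and the submitters' processing notes name the build GRCm38 and the tools DESeq2 1.20.0, featureCounts 1.5.0-p3, STAR and fastp. The authors deposited read counts divided by size factors, a normalized signal per gene, and beside it their own log2 fold changes, test scores and p-values for aged against young wild type. Whole reads were recovered from 100% of values (tolerance 1e-06). Tests used limma 3.58.1 in R 4.3.3 on log2(normalized count + 1), 3 groups in 1 model, genes with a mean of at least 10, and Benjamini-Hochberg adjusted p under 0.05 over all genes tested. Alternatives were pseudocounts of 0.5 and 5, a mean of at least 1, no filter, TMM scaling, a denominator without Gm26917, mitochondrial, immunoglobulin and globin genes, edgeR 4.0.16 and DESeq2 1.42.0 on recovered reads, only the 2 groups compared, and leaving out each library. On recovered reads edgeR called 1821 genes higher and 1932 lower with age, 1134 and 950 in labelled Trem1-/- against aged wild type, and 52 and 28 against young wild type. The fits were tested on simulated data. Exon lengths and coordinates are from GENCODE M21, which holds 53825 of the 54532 symbols, and levels per kb divide by the union of exons. Binomial intervals are exact (Clopper-Pearson, 95%), and intervals and floors cover counting error only, since the reads carry no molecular identifiers. The members and lists were chosen with earlier results of these data known. All 39 members are named, and of the other lists the called genes with the 3 lowest adjusted p in each comparison, with Cd4, Cd5, Trdc, Foxp3, Klrg1, Adgre1 and Cd79a. Some genes that this rule names are not reported here. Cd244, on the list of other NK genes, had no row in the table used. Protein sequences were not used here.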

Additional observations from a re-analysis of the deposited data

How the results depend on the processing

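No paired analysis was possible because the groups share fewer than 2 replicate numbers. Between aged and young wild type, 18 to 23 members were called higher when 1 library was left out and 21 to 29 in the other settings, and 0 were called lower in any. The 29 was reached without the filter, over 39 members, where 5.25% of all genes were called higher. A mean of at least 1 took in 38 members, and the remaining settings took in 27. Shares of all genes called are given above for the main fit, no filter, edgeR and DESeq2 only. In labelled Trem1-/- against aged wild type, 8 to 20 were called lower when 1 library was left out (8 without aged wild type 3) and 15 to 24 in the other settings. In labelled Trem1-/- against young wild type, the count of 1 called higher became 2 with a mean of at least 1, 3 with no filter, 2 with only the 2 groups in the fit, 2 with DESeq2, and 0 to 1 when 1 library was left out. No called member changed sign in any setting run. Outside the leave-one-out fits, 21 of 23, 12 of 19 and 1 of 1 calls held in every setting. The reduced denominator moved the median of all genes by 0.19 with age and by -0.22 in labelled Trem1-/- against aged wild type, and TMM by -0.07 and 0.06. The mean share of reads over all 39 members, 0.0138% in young wild type, 0.0615% in aged wild type and 0.0213% in labelled Trem1-/-, became 0.00812%, 0.0351% and 0.00782% without Cd2, Ctla4 and Il2rb. The causes of these changes were not tested. Depth limits the members with few reads, and 2 to 16 of the 39 had fewer than 3 reads in a library.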
